A study of Mus musculus with 9 samples.

Results

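The genes described here encode 6 metabotropic glutamate receptors, *Grm2*, *Grm3*, *Grm4*, *Grm5*, *Grm7* and *Grm8*. They were taken by name from the 21457 genes of a single nucleus RNA sequencing matrix of 16042 cholinergic nuclei of the adult mouse spinal cord, and all 6 were found there. The nuclei came from 12 *Chat-IRES-Cre::CAG-Sun1-sfGFP* mice aged 8 weeks, in 3 pools of 4: replicate 1 held 2 males and 2 females, replicate 2 males and replicate 3 females. Each pool was cut into cervical, thoracic and lumbar/sacral cord, which gave 3 libraries per region and 9 in all. All groups carried the same alleles, and no mouse was treated. The Cre allele marks a nucleus for good once its cell has expressed *Chat*, so the sort does not require *Chat* in the adult. The 3 libraries of a replicate came from the same mice, so there were 3 pools in all. P-values of the region comparisons within a class measure the spread between pools. Those of the region comparisons within a cluster also count cervical and thoracic libraries of the same mice as replicates. The class and type comparisons, and the comparison of lumbar/sacral differences between classes, likewise count regions of the same mice as replicates. Those of the sex comparison measure the spread between regions of 1 pool per sex. The authors' labels put 5054 nuclei in skeletal motor neurons (MNs; clusters S1 to S3), 5613 in visceral MNs (V1 to V10) and 5375 in interneurons (I1 to I8).

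Metabotropic glutamate receptors are G protein coupled receptors that tune a synapse where ionotropic receptors carry the fast current. *Grm5* belongs to group I, whose receptors act through Gq, phospholipase C and IP3 receptors, mostly on the postsynaptic side, where Homer proteins anchor them. *Grm2* and *Grm3* form group II, and *Grm4*, *Grm7* and *Grm8* belong to group III. Receptors of these groups act through Gi/o, which lowers adenylyl cyclase activity, and many of them sit on presynaptic endings and restrain transmitter release. In the spinal cord group I receptors are known to excite motor neurons and locomotor circuits.

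Values are the authors' SCTransform-corrected counts, added up per library and cluster, if 10 or more nuclei were there, and expressed per 1000000 (CPM). Such counts are model values, so a level is relative to the total of the same nuclei. Libraries held 747 to 2825 nuclei, median totals per nucleus ran from 4712 to 16127, and 33 barcodes occurred in more than 1 library. The class labels held against *Tns1* and *Fbn2*. Cluster means of *Tns1* were 354 to 400 CPM in skeletal clusters and at most 58.7 elsewhere. Those of *Fbn2* were 94.1 to 1172 in visceral clusters and at most 30.7 elsewhere. *Nos1*, also listed as a visceral marker, went the other way, at a mean of 446 CPM in interneurons and 208 in visceral MNs. *Pax2* reached 380 in interneurons, although I8 was at 9.55 CPM of *Pax2* and V8 at 7.79 of the visceral marker *Zeb2*. Mean *Chat* was lowest in I7 (31.2 CPM, from 0 to 73.4) and I2 (53.0), followed by I8 (97.9), and highest in I5 (377). I2 and I7, which rank high for several receptors below, were thus the clusters with the least *Chat*. *Hoxa9*, which marks caudal cord, went against 2 labels. It was at 0.412, 9.68 and 0.213 CPM in cervical replicates 1, 2 and 3 and at 9.35, 0.507 and 9.04 in thoracic replicates 1, 2 and 3, while the lumbar/sacral libraries were at 24.4 to 31.8. The libraries labelled cervical replicate 2 and thoracic replicate 2 are named as such below, and results that rest on them are given with and without them.

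The receptors lie in genes of very different size, and the pre-mRNA reference counts intronic reads. On GRCm38 with GENCODE M21, *Grm2* spans 13 kb on chromosome 9 (106643095 to 106656082) and *Grm4* spans 99.0 kb on chromosome 17 (27422387 to 27521403). *Grm3* covers 240 kb of chromosome 5 (9485541 to 9725170), and *Grm5* covers 551 kb of chromosome 7 (87584168 to 88134907). *Grm8* and *Grm7* are both on chromosome 6, at 27275119 to 28135178 (860 kb) and 110645581 to 111567230 (922 kb). Levels of different genes were therefore compared per length, which assumes that counts grow with gene length. That assumption was not tested. Over all nuclei *Grm5* had 224 CPM per 100 kb, *Grm7* 135, *Grm8* 68.5, *Grm3* 47.7, *Grm4* 28.5 and *Grm2* 11.4. On this scale *Grm5* led in interneurons (429 CPM per 100 kb) and in visceral MNs (205), whereas in skeletal MNs *Grm7* led at 111 and *Grm5* stood at 21.6. The order depends on the division: undivided, visceral MNs had more *Grm7* (1575 CPM) than *Grm5* (1127).

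Over the 21 clusters, mean levels of 100 CPM or more were found for *Grm5* and *Grm7* in 19 clusters each, for *Grm8* in 16, for *Grm3* in 6 and for *Grm2* and *Grm4* in 0. *Grm5* reached 1000 CPM in 11 clusters and *Grm7* in 12, against 4 clusters for *Grm8* (I1, I2, I7 and V8) and 0 for the others. These are levels not divided by length, so they compare clusters rather than genes. The highest cluster exceeded the lowest 161 times for *Grm8*, 72.1 times for *Grm5*, 32.6 for *Grm7*, 28.1 for *Grm3* and 17.8 for *Grm4*. A nucleus had corrected counts of 1.95 (I3) to 3.99 (I2) of the 6 receptors on average. The clusters were made by the authors from the same expression values, so their levels are a description, and the class and type tests below measure how far such groups differ rather than whether they exist.

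**Figure D1:**
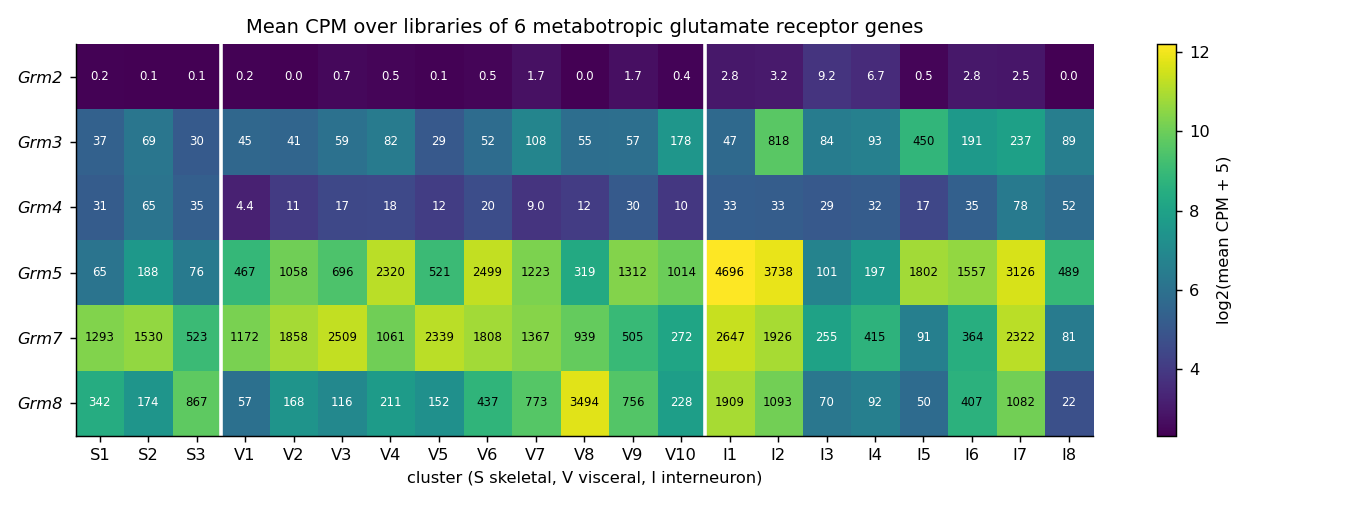
Mean CPM over libraries of the 6 receptor genes (rows) in the 21 clusters (columns), printed in each cell and coloured by the log2 of the mean plus 5. White lines separate skeletal (S), visceral (V) and interneuron (I) clusters. *Grm5* runs from 65 CPM in S1 to 4696 in I1, and *Grm8* is highest in V8 at 3494.

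*Grm5* was highest in I1, with 4696 ± 551 CPM (SD, n = 9), followed by I2 at 3738 ± 531 and I7 at 3126 ± 759 (n = 6). V6 (2499 ± 784, n = 8) and V4 (2320 ± 676, n = 9) led the visceral clusters. Interneuron clusters stood at both ends of the order: I3 had 101 ± 53.8 CPM and I4 had 197 ± 116, and the 3 skeletal clusters completed the low end. In I1, 99.6% of 1520 nuclei had a corrected count of *Grm5*, with a median of 29. In I3, 45.8% of 756 nuclei had one, with a median of 0. Of the 20 neighbouring pairs of clusters in the order, 3 differed by more than the SD of their difference over shared libraries: I1 over I2, I5 over I6, and I3 over S3.

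*Grm7* followed another order. It was highest in I1 (2647 ± 432 CPM, n = 9), V3 (2509 ± 848, n = 9), V5 (2339 ± 648, n = 7) and I7 (2322 ± 290, n = 6), and these neighbours did not differ beyond their spread. It was lowest in I8 (81.1 ± 21.7, n = 8) and I5 (90.8 ± 60.6, n = 9). I5 was thus high for *Grm5* (1802 ± 361 CPM) and low for *Grm7*. The 3 neighbours of the *Grm7* order that differed beyond their spread were V4 over V8, V8 over S3 and I3 over I5.

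*Grm8* was highest in V8, a visceral cluster with 463 of 467 nuclei from lumbar/sacral libraries. The 3 lumbar/sacral libraries had 4140, 3174 and 3167 CPM there, and 99.4% of nuclei had a corrected count. I1 came next with 1909 ± 318 CPM (n = 9), then I2 (1093 ± 266) and I7 (1082 ± 228, n = 6). I8 (21.7 ± 14.5, n = 8), I5 (50.1 ± 28.4) and V1 (57.2 ± 53.2) were at the low end. V8 over I1, I1 over I2, I7 over S3 and S1 over V10 were the 4 neighbours that differed beyond their spread.

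*Grm3*, the group II receptor, was concentrated in I2 and I5. I2 had 818 ± 313 CPM (n = 9), from 447 to 1233 with a median of 740, and I5 had 450 ± 188, from 171 to 773 with a median of 457. I7 (237 ± 122, n = 6), I6 (191 ± 104) and V10 (178 ± 90.7, n = 7) followed. Its lowest cluster was V5, at 29.1 ± 17.7 CPM (n = 7). I2 over I5, I5 over I7 and V8 over V6 differed beyond their spread. The last was a log2 difference of only 0.064 over 2 shared libraries, in which V6 held 13 and 10 nuclei. For I2 over I5 it was 0.89 over 9 libraries.

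*Grm4* stayed under 100 CPM in all 21 clusters and was highest in I7 (78.4 ± 12.8 CPM, n = 6), S2 (64.6 ± 22.5, n = 9) and I8 (52.0 ± 10.8, n = 8). I8 over I6 was its single neighbouring pair beyond the spread. V1 was lowest at 4.42 ± 3.38 CPM. Per length *Grm4* was not the lowest receptor: skeletal MNs had 41.3 CPM per 100 kb of *Grm4*, against 21.6 of *Grm5* and 18.1 of *Grm3*. Undivided, they had 40.9 CPM of *Grm4*, 119 of *Grm5* and 43.3 of *Grm3*. *Grm2* had 175 corrected counts in all 16042 nuclei, too few to be tested. Its mean was 9.15 ± 2.96 CPM in I3 and 6.68 ± 3.74 in I4. There 5.69% of 756 and 4.42% of 702 nuclei had a count, and I8, V2 and V8 had none. Having 0 of 329, 771 and 467 nuclei with a count allows a share of nuclei with a count of up to 0.912, 0.389 and 0.642% (3 counts over the nuclei, counting error only), which does not limit the share of nuclei that express the gene.

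The first comparison set the 3 classes against each other over the 9 libraries. *Grm5* was the receptor that separated them most, and interneurons had more *Grm3* and *Grm5* than both motor neuron classes. *Grm4* was higher in skeletal MNs and interneurons than in visceral MNs. *Grm7* and *Grm8* did not pass the call rule, which is an adjusted p under 0.05 and a log2 difference of 1 or more, between any pair of classes. Adjusted p-values are those of limma after Benjamini and Hochberg over all genes tested. Overlap between libraries is given below as a description of the receptors. The share of all genes without overlap was not counted in any comparison, so a lack of overlap adds no support to a call.

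*Grm5* had a lowest, median and highest library value of 1933, 2497 and 2765 CPM in interneurons, 503, 1157 and 1808 in visceral MNs, and 42.7, 53.0 and 437 in skeletal MNs. No interneuron library overlapped a visceral one, and no visceral library overlapped a skeletal one. The log2 difference was 4.67 ± 0.29 (SE; adjusted p = 6.64e-12) for interneurons over skeletal MNs, -3.49 ± 0.29 (adjusted p = 6.21e-10) for skeletal against visceral MNs, and 1.18 ± 0.29 (adjusted p = 0.00157) for interneurons over visceral MNs. Among all 11292 genes tested, 10.7, 11.8 and 7.75% were called in these comparisons. The highest skeletal value came from the library labelled cervical replicate 2. Without it the skeletal mean was 79.0 ± 42.8 CPM (n = 8) instead of 119 ± 126 (n = 9).

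*Grm3* had 183, 229 and 342 CPM (lowest, median and highest) in interneurons, 44.2, 55.4 and 97.9 in visceral MNs and 7.46, 40.0 and 89.1 in skeletal MNs. The interneuron libraries did not overlap the others, and the motor neuron classes overlapped. Interneurons were higher than skeletal MNs by 2.51 ± 0.21 on the log2 scale (adjusted p = 1.12e-09) and higher than visceral MNs by 1.89 ± 0.21 (adjusted p = 1.52e-07). Skeletal and visceral MNs differed by -0.62 ± 0.21, under the fold threshold.

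*Grm4* had 25.9, 41.7 and 54.6 CPM (lowest, median and highest) in skeletal MNs, 23.3, 34.2 and 39.6 in interneurons and 8.35, 13.6 and 19.0 in visceral MNs. The visceral libraries lay below all others. Skeletal MNs exceeded visceral MNs by 1.34 ± 0.06 (log2; adjusted p = 7.27e-14) and interneurons exceeded them by 1.08 ± 0.06 (adjusted p = 5.60e-12). With a pseudocount of 20 in place of 5 both differences fell under the fold threshold, at 0.87 and 0.68. Interneurons and skeletal MNs differed by -0.26 ± 0.06.

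*Grm7* had 1054, 1506 and 2276 CPM (lowest, median and highest) in visceral MNs, 797, 1263 and 1534 in interneurons and 466, 902 and 1454 in skeletal MNs, and the 3 classes overlapped. Its differences were -0.65 ± 0.15 for skeletal against visceral MNs, -0.39 ± 0.15 for interneurons against visceral MNs and 0.27 (95% interval -0.04 to 0.57) for interneurons against skeletal MNs. The first 2 passed the adjusted p (0.000477 and 0.0312) without reaching the fold. *Grm8* was within 614 to 1027 CPM in interneurons and 394 to 664 in skeletal MNs, whereas visceral libraries ran from 122 to 1604. Interneurons exceeded visceral MNs in *Grm8* by 0.86 ± 0.31 (adjusted p = 0.0276), which was between 1.04 and 1.08, past the fold threshold, when any 1 of lumbar/sacral replicates 1, 2 and 3 was left out.

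**Figure D2:**
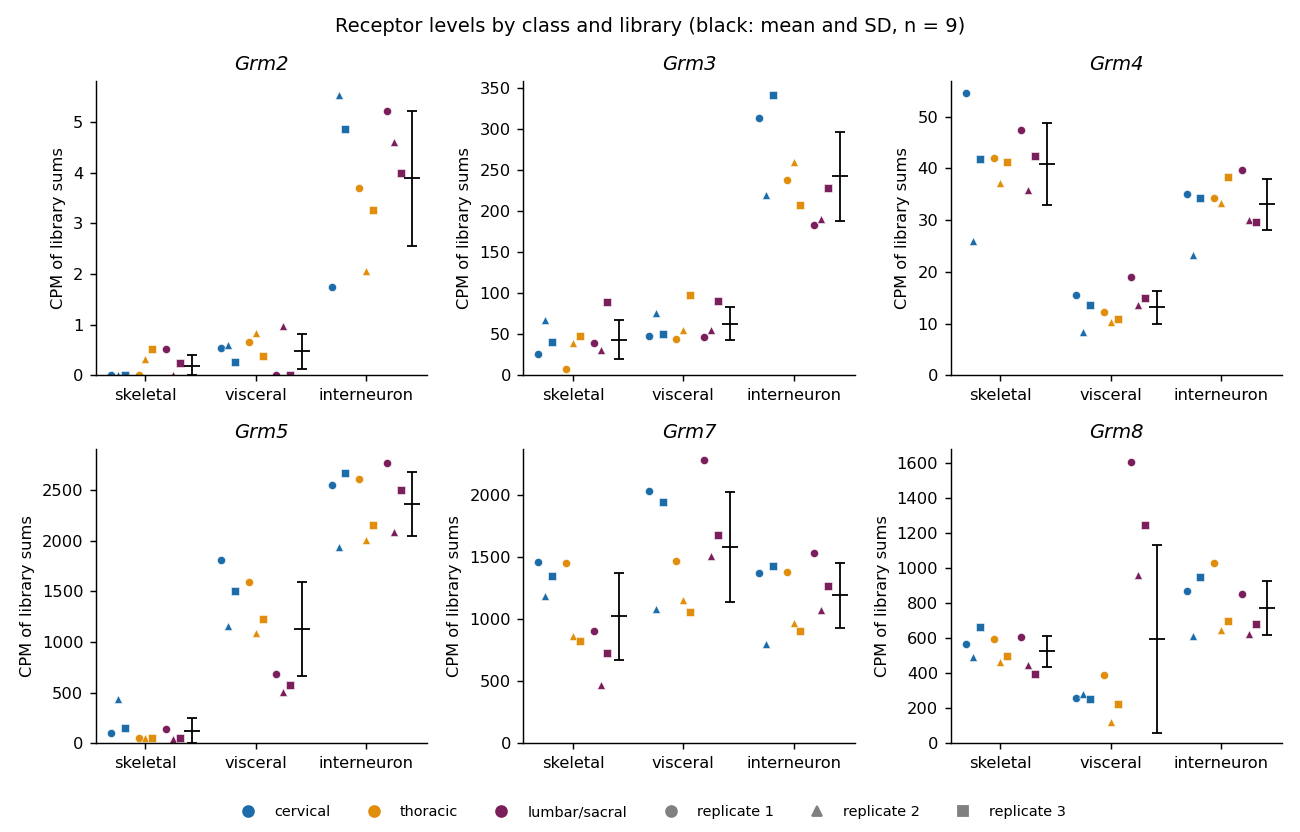
CPM of each receptor in the 9 library sums of each class, on linear axes from 0; colour gives the labelled region, the symbol gives the replicate, and black lines give the mean and SD (lower ends cut at 0). *Grm5* separates the classes, *Grm8* in visceral MNs splits into 3 lumbar/sacral libraries at 959 to 1604 CPM and 6 others at 122 to 391, and 1 library stands apart at 437 CPM of *Grm5* in skeletal MNs.

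Skeletal MN types differed in *Grm7* and *Grm8*, both of group III. S2 carried the alpha MN markers *Rbfox3* (229 CPM against 35.8 in S1 and 64.3 in S3) and *Stk32a* (352 against 14.3 and 10.1). S3, which the study calls gamma MNs, carried *Nrp2* (442 CPM against 3.79 in S1 and 37.6 in S2). The gamma marker *Gfra1* was at 742 CPM in S3, 381 in S1 and 488 in S2. *Esrrg*, another, hardly set S3 (2056 ± 304 CPM) apart from S1 (1931 ± 272), with S2 at 1004. S1, the study's Type 3, carried *Gpr149* (420 against 95.8 in S2 and 14.3 in S3). S3 had less *Grm7* and more *Grm8* than S1 and S2. *Grm4* was highest in S2.

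*Grm7* in S1 was at 1760, 1214 and 1786 CPM in cervical replicates 1, 2 and 3, at 1805, 1164 and 1170 in thoracic and at 1132, 724 and 884 in lumbar/sacral. In S3 the same libraries gave 707, 549 and 757, then 787, 459 and 456, then 442, 242 and 312. S3 was the lower of the pair in each of the 9 libraries, although the ranges over libraries overlapped. The log2 difference between S3 and S1 was -1.33 ± 0.07 (adjusted p = 3.94e-14), and S2 exceeded S3 by 1.59 ± 0.07 (adjusted p = 1.19e-15). Of all genes tested, 5.33 and 8.12% were called in these comparisons.

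*Grm8* went the other way. S3 had a lowest, median and highest library value of 636, 817 and 1089 CPM, S1 had 108, 343 and 527 and S2 had 72.4, 170 and 364. No S3 library overlapped an S1 or S2 library, which was not counted over all genes. S3 exceeded S1 by 1.45 ± 0.17 (log2; adjusted p = 2.83e-07), and S2 was below S3 by -2.38 ± 0.17 (adjusted p = 2.39e-11). In S3, 95.3% of nuclei had a corrected count of *Grm8*.

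Between S2 and S1, 5.23% of all genes were called and 0 receptors were. The nearest were *Grm8* at -0.94 ± 0.17 and *Grm4* at 0.88 ± 0.16, both past the adjusted p (0.000155 and 0.00014) but not the fold. When the library labelled cervical replicate 2 was left out, both were called, at -1.06 for *Grm8* and 1.04 for *Grm4*. *Grm8* was also called without lumbar/sacral replicate 2, at -1.05. *Grm3* was higher in S2 by 0.69 ± 0.24 over S1 and 0.91 ± 0.24 over S3, under the fold. The second was called with a pseudocount of 1, at 1.01, and without cervical replicate 1 (1.03) or lumbar/sacral replicate 1 (1.01).

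**Figure D3:**
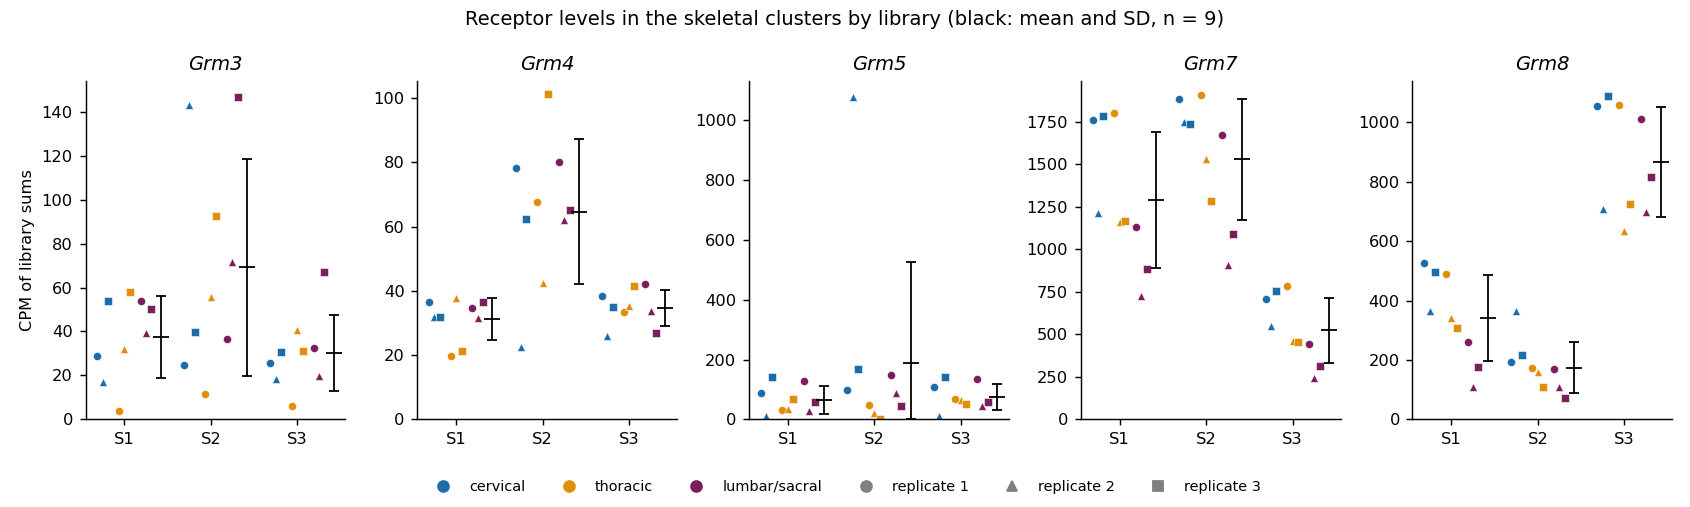
CPM of 5 receptors in S1, S2 and S3 by library, on linear axes from 0 that differ between panels; colour gives the labelled region, the symbol the replicate, black lines the mean and SD over 9 libraries (lower ends cut at 0). *Grm7* is lower and *Grm8* higher in S3, and 1 library, labelled cervical replicate 2, stands at 1078 CPM of *Grm5* in S2.

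*Grm5*, which the study lists as a marker within alpha MNs, varied widely between libraries in S2. They were 99.1, 1078 and 167 CPM in cervical replicates 1, 2 and 3, 49.6, 22.5 and 0 in thoracic, and 147, 88.2 and 43.3 in lumbar/sacral. The mean of 188 ± 338 CPM (n = 9) fell to 77.1 ± 59.0 (n = 8) without the library labelled cervical replicate 2. *Grm5* differences between S2 and the other types were not called (0.46 ± 0.58 over S1, 0.19 ± 0.58 over S3), and both changed sign without that library, to -0.25 and -0.57.

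The 71 S2 nuclei of that library differed from other S2 nuclei in more than *Grm5*. Of these nuclei 95.8% had a corrected count of *Grm5*, against 0 to 50.3% in the other 8 libraries. The skeletal marker *Tns1* was at 80.5 CPM there and at 354 on average in S2, the alpha marker *Stk32a* was at 101 against 352, and the visceral marker *Zeb2* was at 133 CPM. Their part in the *Grm5* value was not tested. In S2 as a whole 29.3% of 1285 nuclei had a count of *Grm5*, 8.56% had at least 5, and the top 10% of nuclei held 80.9% of its counts. Without the library these shares were 25.4, 3.54 and 74.0%. S1 and S3 had a corrected count of *Grm5* in 23.9 and 26.2% of nuclei, so outside that library having a count did not set S2 apart.

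Regions were compared within each class, lumbar/sacral against the 6 rostral libraries. The size of this difference does not depend on which of those are cervical. Its SE and p do, since they use the spread within the labelled regions. In visceral MNs *Grm5* was lower and *Grm8* higher in lumbar/sacral cord. No receptor passed the test in skeletal MNs or interneurons, where 0.01 and 0.051% of all genes were, against 4.27% in visceral MNs. In skeletal MNs *Grm7* had a difference of -0.77 ± 0.24 (adjusted p = 0.90).

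*Grm8* in visceral MNs was at 1604, 959 and 1249 CPM in lumbar/sacral replicates 1, 2 and 3. Cervical libraries had 259, 283 and 250, and thoracic ones 391, 122 and 223. The groups did not overlap, which was not counted over all genes, and the log2 difference was 2.34 ± 0.31 (adjusted p = 0.00329). V8 held 25.8 to 33.4% of lumbar/sacral visceral nuclei and 81.5 to 85.9% of their *Grm8* counts. Without V8 the *Grm8* difference was 0.26 (adjusted p = 0.945). In sums over a class, more nuclei of a type and more RNA per nucleus cannot be told apart.

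*Grm5* in visceral MNs was at 686, 503 and 573 CPM in lumbar/sacral, 1808, 1157 and 1503 in cervical and 1592, 1090 and 1229 in thoracic libraries. The lumbar/sacral libraries lay below the rest, with a difference of -1.23 ± 0.18 (adjusted p = 0.00561). V8 was also low in *Grm5*, at 409, 280 and 268 CPM. Without V8 the difference was -0.97 and was still called.

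The lumbar/sacral differences were themselves compared between classes in 1 fit of all 27 sums. For *Grm7* the visceral difference exceeded the skeletal one by 1.13 ± 0.15 (adjusted p = 2.20e-05), and the interneuron difference exceeded it by 0.97 ± 0.15 (adjusted p = 0.0019). The second fell to 0.83 (adjusted p = 0.0572) without lumbar/sacral replicate 2. Skeletal *Grm7* was at 902, 466 and 727 CPM in lumbar/sacral, 1454, 1187 and 1344 in cervical and 1448, 860 and 821 in thoracic libraries, so the groups overlapped. For *Grm5* the visceral difference was not shown to differ from the skeletal one (-0.73 ± 0.54, adjusted p = 0.47) or from the interneuron one (-1.31 ± 0.54, adjusted p = 0.166). The second was called without cervical replicate 2 (-1.31, adjusted p = 0.00697) and without both libraries whose *Hoxa9* went against their labels (-1.34, adjusted p = 0.0137). For *Grm8* the visceral difference exceeded the skeletal one by 2.53 ± 0.20 (adjusted p = 3.09e-08) and the interneuron one by 2.48 ± 0.20 (adjusted p = 3.58e-08). Without V8 these were 0.45 (adjusted p = 0.311) and 0.40 (adjusted p = 0.408). *Grm3* and *Grm4* were not called, with differences between classes from -0.86 to 0.42 for *Grm3* and from -0.06 to 0.32 for *Grm4*. Without V8 the *Grm4* difference between visceral MNs and interneurons was called, at 0.44 (adjusted p = 0.0456). Of all genes, 9.73% were called for visceral against skeletal, 0.7% for interneuron against skeletal and 8.27% for visceral against interneuron.

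Within single clusters 18 could be compared, V8, V9 and V10 having too few sums. In these fits the cervical and thoracic libraries formed a single rostral group, so libraries of the same mice counted as separate replicates. Of 90 receptor tests 9 were called, in V2, V5, V6 and I6, and 24 had an unadjusted p under 0.05 in the limma fits. Among all genes, such a p was found for 155 of 9370 in I1, the fewest, to 2603 of 9895 in V6, the most. The share of all genes called was 0% in I1, 0.501% in I2, 0.0317% in I3, 0.051% in I4, 0.0191% in I5, 0.011% in I7 and 0.0579% in I8. It was 0.0698% in S1, 0.00963% in S2, 0.061% in S3, 0.0301% in V1, 1.84% in V3, 2.94% in V4 and 0.0783% in V7. With the pool of mice as a replicate block 14 were called: the block added *Grm3* in I2 (-0.85, adjusted p = 0.0404) and I7 (-1.38, adjusted p = 0.0166), *Grm8* in S1 (-1.25, adjusted p = 0.0216), *Grm5* in V4 (-0.79, adjusted p = 0.0184) and *Grm7* in V7 (-0.80, adjusted p = 0.0129). Calls over all genes rose too, from 48 to 123 in I2, 1 to 21 in I7 and 7 to 14 in S1. They rose from 301 to 425 in V4 and from 8 to 61 in V7.

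V2 had 3 of the 9 calls, where 3.25% of all genes were called. *Grm8* was at 492, 249 and 468 CPM in lumbar/sacral replicates 1, 2 and 3, against 52.0, 56.5 and 62.5 in cervical and 77.5, 25.1 and 31.6 in thoracic libraries, a difference of 2.89 (95% interval 2.20 to 3.58, adjusted p = 0.000169). *Grm7* was at 3569, 2762 and 3172 CPM in lumbar/sacral, 1225, 1162 and 1427 in cervical and 1688, 528 and 1193 in thoracic libraries. It was higher by 1.47 (0.82 to 2.11, adjusted p = 0.013), a call lost without lumbar/sacral replicate 1 (adjusted p = 0.0803) or 3 (adjusted p = 0.0821). *Grm5* was lower, at 657, 359 and 616 CPM in lumbar/sacral, 1662, 1167 and 1475 in cervical and 1502, 970 and 1116 in thoracic libraries, a difference of -1.29 (adjusted p = 0.00586). In V2 the lumbar/sacral libraries did not overlap the others for any of the 3 receptors. These were named because they were called, so the lack of overlap adds no support. The share of all genes without overlap was not counted.

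V5 showed the same directions for *Grm5* and *Grm8*, with 1.2% of all genes called. *Grm5* was at 355, 264 and 293 CPM in lumbar/sacral libraries and at 504 to 840 in the 4 others with at least 10 nuclei, a difference of -1.14 (adjusted p = 0.0198). *Grm8* was at 284, 266 and 205 against 30.2 to 146, a difference of 1.85 (adjusted p = 0.0498). Both calls were close to the threshold. *Grm5* lost it without cervical replicate 1 or 3 or lumbar/sacral replicate 2 or 3 (adjusted p = 0.0791 to 0.138), and *Grm8* lost it without any 1 of these or lumbar/sacral replicate 1 (adjusted p = 0.0859 to 0.218), with median-of-ratios scaling (adjusted p = 0.057) and with a pseudocount of 1 (adjusted p = 0.0874).

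In V6 the direction of *Grm8* was the opposite. The 2 lumbar/sacral libraries with enough nuclei held 13 and 10 of them and had 16.2 and 14.7 CPM, which is 1 corrected count each, against 295, 773 and 310 in cervical and 1237, 138 and 709 in thoracic libraries. The difference was -4.49 (95% interval -5.98 to -3.00, adjusted p = 0.00347), in a cluster where 11.4% of all genes were called. The size of a difference that rests on 2 counts depends on the pseudocount, and it was -4.79 with 1 and -3.75 with 20. Pooled, the 2 libraries had 15.4 CPM (95% exact Poisson interval 1.86 to 55.6, counting error only) and the rostral libraries 687 (665 to 710). Lumbar/sacral replicate 3, left out for having 7 nuclei, was at 234 CPM with 9 counts, inside the rostral range. With it the pooled lumbar/sacral level was 65.4 CPM (32.6 to 117). *Grm5* in V6 was at 1555 and 1350 CPM against 2194 to 3603, a difference of -0.95 (adjusted p = 0.0342) that lost its call without cervical replicate 1, 2 or 3 or thoracic replicate 1 or 3 (adjusted p = 0.0503 to 0.0736), without both libraries whose *Hoxa9* went against their labels (adjusted p = 0.0655) and without the filter on low values (adjusted p = 0.0698).

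I6 was the interneuron cluster with calls, and 0.925% of all genes were called there. *Grm7* was at 899, 463 and 888 CPM in lumbar/sacral replicates 1, 2 and 3, against 238, 72.8 and 325 in cervical and 114, 193 and 79.3 in thoracic libraries. It was higher by 2.25 (95% interval 1.36 to 3.14, adjusted p = 0.0168), a call lost without lumbar/sacral replicate 1 (adjusted p = 0.161) or 3 (adjusted p = 0.146). *Grm3* was at 389, 289 and 275 CPM against 118, 89.3 and 184 in cervical and 100, 139 and 133 in thoracic libraries, higher by 1.31 (0.86 to 1.76, adjusted p = 0.00663) and not called without lumbar/sacral replicate 1 (adjusted p = 0.0843). Neither receptor overlapped between the groups, but both were named because they were called. The share of all genes without overlap was not counted here either.

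**Figure D4:**
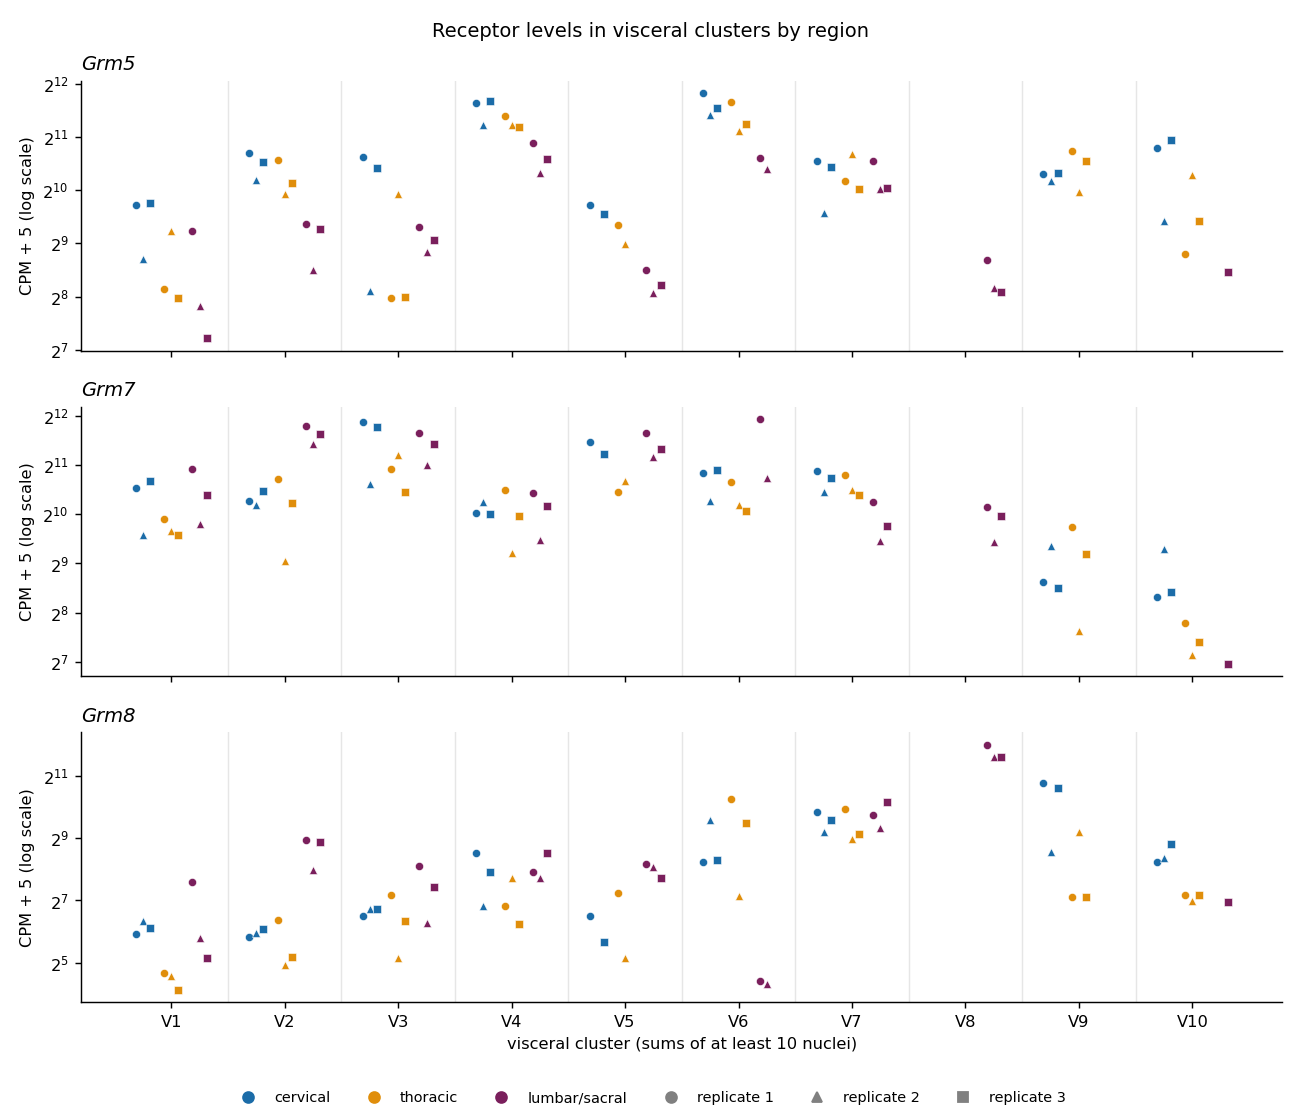
*Grm5*, *Grm7* and *Grm8* in the 10 visceral clusters, 1 point per library sum of at least 10 nuclei, with CPM plus 5 on a log axis; colour gives the labelled region and the symbol the replicate. In V2 and V5 lumbar/sacral points lie above the others for *Grm8* and below them for *Grm5*, in V6 they lie below for *Grm8*, and V8 holds lumbar/sacral points only, at 3167 to 4140 CPM of *Grm8*.

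No receptor was called between libraries labelled cervical and thoracic in any class, where 0 genes were called at all, although 607 genes (skeletal), 160 (visceral) and 189 (interneuron) had an unadjusted p under 0.05. Leaving out the libraries labelled cervical replicate 2 and thoracic replicate 2 gave no receptor call either. Skeletal *Grm5* had the lowest p, with a difference of 1.78 ± 0.53 (adjusted p = 0.719), or 1.14 (adjusted p = 0.784) without both libraries. Differences of the other receptors tested ran from -0.18 to 0.60 over the 3 classes.

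In 3 pairs of a receptor and a visceral cluster, chosen after their values were seen and not tested, the values of the 6 rostral libraries followed *Hoxa9* and not the label. In V3, *Grm5* was at 1563, 270 and 1352 CPM in cervical replicates 1, 2 and 3 and at 247, 966 and 249 in thoracic replicates 1, 2 and 3. In V10, *Grm5* was at 1758, 680 and 1948 in cervical and at 442, 1239 and 681 in thoracic libraries. *Grm8* in V9 was at 1739, 376 and 1570 in cervical and at 134, 587 and 133 in thoracic libraries. In each of these the 3 libraries with *Hoxa9* under 1 CPM were the 3 highest. It did not hold for *Grm5* or *Grm8* in V2, whose values are given above, or for *Grm5* in skeletal MNs, where the library labelled cervical replicate 2 was highest.

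**Figure D5:**
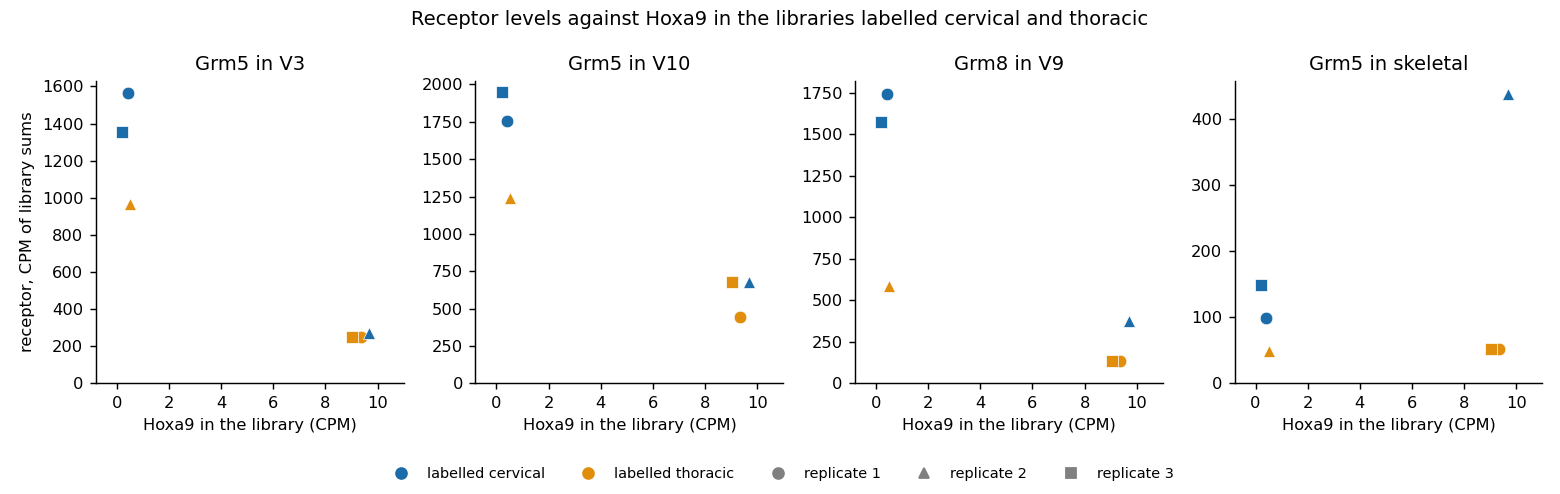
Receptor CPM (vertical) against *Hoxa9* CPM over all nuclei of the library (horizontal) in the 6 libraries labelled cervical or thoracic, for *Grm5* in V3, *Grm5* in V10, *Grm8* in V9 and *Grm5* in skeletal MNs (panels from left to right), on linear axes. Colour gives the label and the symbol the replicate; in the 3 visceral panels the thoracic triangle sits with the cervical circle and square, and the cervical triangle with the thoracic ones, whereas in skeletal MNs the cervical triangle is highest.

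Male and female pools were compared with region as a term and without the mixed pool. With 1 pool per sex, sex and pool cannot be told apart. No receptor was called in any class, where, for skeletal MNs, visceral MNs and interneurons in turn, 0.0725, 0.0513 and 0.0521% of all genes were, and no receptor had an unadjusted p under 0.05 in these limma fits. The 5 receptors tested had differences from -0.35 to 0.38 between the pools over the 3 classes. *Grm3* was lower in the male pool by -0.33 ± 0.39 in skeletal MNs and -0.29 ± 0.29 in visceral MNs. Without cervical replicate 2 or without cervical replicate 3, either of which leaves the thoracic and lumbar/sacral libraries, these were -0.83 (adjusted p = 0.00023 or 0.000552) and -0.71 (adjusted p = 0.0304 or 0.031). In these fits up to 1329 genes were called in skeletal MNs and up to 425 in visceral MNs. Without lumbar/sacral replicate 2 or 3 the skeletal *Grm3* value was 0.20.

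The genes through which the receptors act were counted in 6 lists, with the same call rule. Between skeletal and visceral MNs, where 11.8% of all genes were called, 10 of 12 Gq pathway genes could be tested, and of these 4 were higher in skeletal MNs and 1 was lower (list median -0.28, median of all genes -0.04). The IP3 receptor genes led, *Itpr3* by 3.51 ± 0.14, *Itpr2* by 2.23 ± 0.12 and *Itpr1* by 1.87 ± 0.25, in the class with the least *Grm5*. Of 7 of 8 scaffold genes tested, *Dlgap1* was higher in skeletal MNs by 1.48 ± 0.06 and *Homer2*, a group I anchor, was lower by -1.28 ± 0.11. Of 16 of 17 Gi/o pathway genes tested, 4 were higher and 2 lower: the adenylyl cyclase gene *Adcy8* was at 3.01 ± 0.14, *Adcy7* at -2.67 ± 0.12 and *Adcy2* at -2.0 ± 0.12. *Rgs7* (1.43 ± 0.06) and *Rgs4* (1.26 ± 0.13), which speed the shut-off of G proteins, were the 2 called of 7 of 9 kinases, arrestins and regulators tested. Of the partners of groups II and III (6 of 9 tested) and the glutamate transport genes (4 of 7 tested), 0 were called.

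Interneurons had more *Prkcb* (1.93 ± 0.09), a protein kinase C gene, and *Kcnj6* (1.77 ± 0.11), a Gi/o-gated potassium channel subunit, than skeletal MNs, and also more *Homer2* (1.60 ± 0.11) and *Rgs8* (1.68 ± 0.16). They had less *Itpr3* (-3.46 ± 0.14), *Itpr2* (-2.16 ± 0.12), *Dlgap1* (-1.97 ± 0.06) and *Grip1* (-1.18 ± 0.11), a scaffold partner. They also had more *Adcy7* (1.87 ± 0.12) and less *Adcy2* (-1.60 ± 0.12). By list, beside 10.7% of all genes called, 1 Gq pathway gene was higher and 2 lower of 10, 1 scaffold gene was higher and 1 lower of 7, 2 Gi/o genes were higher and 1 lower of 16, 1 partner was lower of 6, 1 regulator was higher of 7 and 2 transport genes were higher of 4, *Slc1a6* (1.22 ± 0.09) and *Slc1a2* (1.02 ± 0.17). Against visceral MNs, interneurons had more *Prkcb* (1.51 ± 0.09), *Itpr1* (1.5 ± 0.25), *Adcy8* (2.93 ± 0.14) and *Kcnj6* (2.75 ± 0.11), and less *Prkca* (-1.35 ± 0.18) and *Adcy2* (-3.60 ± 0.12). *Rgs8* (1.43 ± 0.16), *Rgs7* (1.40 ± 0.06) and *Slc1a1* (1.16 ± 0.07), a glutamate transporter gene, were higher in interneurons too. Beside 7.75% of all genes, 2 Gq pathway genes were higher and 1 lower of 10, 3 Gi/o genes were higher and 1 lower of 16, 2 regulators were higher of 7 and 1 transport gene was higher of 4, while 0 of 7 scaffold genes and 0 of 6 partners were called.

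Between skeletal types, S2 had more *Itpr1* than S1 (1.37 ± 0.15) and S3 had less (-2.23 ± 0.15). The potassium channel subunits moved apart: *Kcnj6* was higher in S3 than in S1 by 3.24 ± 0.23 and *Kcnj3* was lower by -1.59 ± 0.09. *Elfn1*, whose protein binds group III receptors across the synapse, was higher than in S1 both in S2 (2.18 ± 0.22) and in S3 (1.38 ± 0.22). S2 also had more *Itpr3* (1.37 ± 0.22), *Homer2* (1.23 ± 0.20), *Kcnj6* (1.28 ± 0.23) and *Slc1a1* (1.08 ± 0.10) than S1, and less *Shank2* (-1.01 ± 0.17), a scaffold gene. S3 had more *Grip1* (1.63 ± 0.09) and less *Adcy8* (-1.56 ± 0.11) than S1. Against S3, S2 had more *Itpr1* (3.60 ± 0.15), *Homer2* (1.06 ± 0.20), *Kcnj3* (1.52 ± 0.09) and *Adcy8* (1.44 ± 0.11), and less *Dlgap1* (-1.25 ± 0.06) and *Kcnj6* (-1.96 ± 0.23). Beside 5.23% of all genes called between S2 and S1, 2 Gq pathway genes were higher and 0 lower of 11, and 1 Gi/o gene was higher and 0 lower of 15. Beside 5.33% called between S3 and S1, 0 Gq pathway genes were higher and 1 lower of 11, and 1 Gi/o gene was higher and 2 lower of 15. Between S2 and S3, with 8.12% called, 1 Gq pathway gene was higher in S2 of 11, and 2 Gi/o genes were higher and 1 lower of 15.

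In lumbar/sacral visceral MNs *Itpr1* was higher by 1.52 ± 0.16, and *Prkca* (-1.12 ± 0.15), the phospholipase C gene *Plcb4* (-1.03 ± 0.18) and *Homer2* (-0.51 ± 0.11) were lower. *Kcnj3* (0.92 ± 0.21) and the glutamate transporter gene *Slc1a2* (0.94 ± 0.19) were higher. These sums include V8, and the list genes were not looked at without it. Calls over all genes fell from 428 to 173 without V8. In all, beside 4.27% of all genes, 1 Gq pathway gene was higher and 2 lower of 9 tested, 1 scaffold gene was lower of 7, 1 Gi/o gene was higher of 16, 0 partners of 6 and 0 regulators of 5 were called, and 1 transport gene was higher of 3. The median over the Gq list was -0.05 and over the Gi/o list 0.02, beside 0.06 for all genes. In skeletal MNs and in interneurons 0 genes of these lists were called between lumbar/sacral and rostral libraries.

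Between classes, the lumbar/sacral difference of *Itpr1* was larger in visceral than in skeletal MNs by 1.51 ± 0.34, and those of *Kcnj3* (0.97 ± 0.11), *Rgs8* (1.05 ± 0.24), *Rgs7* (0.37 ± 0.10) and *Slc1a2* (1.12 ± 0.20) were larger too. Those of *Prkca* (-1.40 ± 0.20), *Plcb4* (-0.95 ± 0.10), *Adcy7* (-0.77 ± 0.19), *Gnai3* (-0.60 ± 0.14), a Gi subunit gene, and *Grip1* (-0.69 ± 0.16) were smaller. Of the Gq pathway genes 1 was higher and 2 lower of 10, and of the Gi/o genes 1 was higher and 2 lower of 16, beside 9.73% of all genes. Against interneurons the visceral differences were larger for *Itpr1* (1.70 ± 0.34), *Kcnj3* (1.07 ± 0.11), *Rgs8* (0.84 ± 0.24) and *Slc1a2* (1.26 ± 0.20) and smaller for *Prkca* (-1.16 ± 0.20) and *Plcb4* (-0.74 ± 0.10), beside 8.27% of all genes. Between interneurons and skeletal MNs 0 genes of the lists were called, beside 0.7% of all genes. Here too the visceral sums include V8, and the list genes were not looked at without it. Without V8, calls over all genes fell from 1099 to 500 against skeletal MNs and from 934 to 499 against interneurons.

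Within single clusters, list genes were called between lumbar/sacral and rostral libraries in V2 to V6 and in I6, in the same limma fits as the receptors. *Itpr1* was higher in V2 (2.62 ± 0.43) and V4 (1.37 ± 0.33), and *Plcb4* was lower in V3 (-1.28 ± 0.19) and V6 (-2.96 ± 0.38). *Prkca* was lower in V4 (-0.69 ± 0.15) and V6 (-1.36 ± 0.38), where *Plcb1*, another phospholipase C gene, was lower as well (-1.49 ± 0.31). *Shank2* was higher in V2 (0.73 ± 0.18) and V4 (1.08 ± 0.20). *Kcnj3* was higher in V2 (2.61 ± 0.48), V4 (1.66 ± 0.36) and V6 (3.21 ± 0.61), the 3 clusters in which it was called. *Grip2* was higher in V2 (1.34 ± 0.33), and *Grip1* was lower in V3 (-0.94 ± 0.22) and V5 (-1.39 ± 0.24). V6 also had less *Adcy6* (-2.29 ± 0.51), *Kcnj9* (-1.99 ± 0.35) and *Cyth2* (-1.62 ± 0.44) and more of the transporter genes *Slc1a6* (1.40 ± 0.32) and *Slc1a1* (1.18 ± 0.25), in sums of 13 and 10 lumbar/sacral nuclei. In I6, *Adcy2* was higher by 2.46 ± 0.31. Beside 3.25% of all genes, 1 Gq pathway gene of 9 and 1 Gi/o gene of 16 were called in V2, and in V6, beside 11.4%, 4 of 8 and 5 of 16 were.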

How the data were processed

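GFP+ nuclei were profiled by 10x single nucleus RNA sequencing. Per the labels and the study's methods, Cell Ranger (3.1.0) was run by the authors on a GRCm38 reference that counts unspliced transcripts, outliers were dropped, and Seurat gave the clusters; DESeq2 is named in the submitters' processing notes. The deposited values are SCTransform-corrected counts, treated as a score, since the totals of a library lie in a narrow band. Annotations cover 34231 nuclei. Doublets were not called again. Corrected counts were summed over at least 10 nuclei of a library and class or cluster, scaled to 1000000 (CPM) and tested as log2(CPM + 5) with limma 3.58.1 (trend) in R 4.3.3, keeping genes that reached 10 CPM in 3 or more sums. A fold is on that scale and understates the change of low genes. Calls required an adjusted p under 0.05 and, for classes and skeletal types, a log2 fold change of at least 1. Class, type and between-class fits had a library term, sex fits a region term, and region fits none. Alternatives were other scaling (median of ratios), pseudocounts of 1 and 20, other filters, at least 20 nuclei, the library or pool term, each library left out, and nuclei thinned to 4600 counts (8.63% left out). On simulated data over 11 layouts, 71.5 to 100% of 200 changed genes were recovered and 0.565 to 7.11% of calls were false. Those calls used the adjusted p alone. The simulated noise was independent between sums, so these rates leave out the correlation between libraries of the same mice.

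Libraries of one replicate come from the same mice, so the numbers should pair them. Deviations from the region means had median correlations of 0.65 to 0.75 between libraries of the same number (lowest -0.22) and -0.45 to -0.40 otherwise. Cervical replicate 3 went against this in all 3 classes. It was at -0.22 to -0.01 with the other libraries of its number and at 0.32 to 0.46 with thoracic and lumbar/sacral replicate 1. The cause was not tested. The members and lists were chosen with earlier results of these data known. The 6 receptors were described in every comparison, those not called in part by their range, and of each list the called genes with the largest change, up to 3, were named. A split of S2 nuclei by *Grm5* counts is not reported, since the share of nuclei with a count was close to that of S1 and S3. Other tools were Python 3.11.15, numpy 2.4.6, pandas 2.3.3 and matplotlib 3.10.9.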

Additional observations from a re-analysis of the deposited data

Results flagged for a closer look

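In the 6 libraries labelled cervical or thoracic, 1 library stood far from the others by Dixon's test in 3 of 30 groups looked at, and each time it was the library labelled cervical replicate 2. Chance gives about 1 such group in 20. *Grm5* in S2 was at 1078 CPM there, with the next library at 167, and *Grm5* in all skeletal MNs was at 437, with the next at 148. The first 2 are not separate observations, since S2 held 98.7% of the skeletal *Grm5* counts of that library. *Grm4* in interneurons was at 23.3 CPM, with the next at 33.4.

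The lumbar/sacral difference of 2 receptors differed between classes by the test of the difference itself. For *Grm7* the visceral difference exceeded the skeletal one by 1.13 (log2) and the interneuron difference exceeded it by 0.97. For *Grm8* the visceral difference exceeded the skeletal one by 2.53 and the interneuron one by 2.48, and neither was called without V8.

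*Grm8* was higher in lumbar/sacral libraries in V2, by 2.89, and lower in V6, by -4.49. In V6 the 2 lumbar/sacral libraries tested had 1 corrected count each, and the third, with 7 nuclei, was at 234 CPM, inside the rostral range of 138 to 1237. Each was called in its own cluster, and the difference between the clusters was not tested.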

How the results depend on the processing

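Receptor differences were recomputed under each alternative. Counted here were all class and type differences. Elsewhere only those called, with an unadjusted limma p under 0.05, or called with the block or under any alternative of the sex comparison were counted. Among these, 1056 kept their direction and their side of the threshold, 29 lost the call, 29 gained one and 7 changed sign. Other uncalled differences are left out, so the totals do not describe the stability of all receptor differences. Leaving out both libraries whose Hox levels went against their labels, and leaving out V8, were chosen after seeing the data. The *Grm5* difference of S2 over S1 (0.46) became -0.22 without both libraries and -0.25 without cervical replicate 2 (up to 1.0 with another library left out), and that of S2 over S3 (0.19) became -0.45, -0.57 (up to 0.65) and, with a pseudocount of 1, -0.026. Skeletal *Grm3* between male and female pools ran from -0.83 to 0.20 with 1 library left out. The number of receptors called moved from 2 to 1 between skeletal and visceral MNs (pseudocount 20), from 0 to 2 between S2 and S1 (both libraries out; 0 to 2 with 1 library out), from 2 to 1 for lumbar/sacral visceral MNs and for visceral against skeletal (without V8), and from 1 to 2 for visceral against interneuron (both libraries out; 1 to 2 with 1 out). With 1 library out it was 0 to 1 for interneuron against skeletal and, between male and female pools, 0 to 1 in skeletal and in visceral MNs. Over single clusters it moved from 9 to 14 with the replicate block and to between 3 and 10 with 1 library out. In the class region comparisons the block changed no receptor call. V6 was not fitted without lumbar/sacral replicate 1 or 2, which leaves 1 lumbar/sacral sum, so its calls are missing from those counts. Genes called in visceral MNs went from 428 to 737 with the block and to 173 without V8. Class calls (1333, 1203 and 875) fell to 669, 626 and 429 with a pseudocount of 20, and type calls (600, 611 and 931) to 179, 208 and 312 with the filter on every sum. The median of all genes lay at 0.12 in the lumbar/sacral skeletal comparison, -0.13 in the cervical against thoracic one and -0.20 in V6. Levels moved by less than 1 SD in 288 of 288 cases, and 31 of 144 shares of nuclei moved by more when thinned. The causes of these changes were not tested beyond what the alternatives leave out. *Grm2*, with 175 counts, could not be tested at this depth.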

Other observations

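The genes whose mean log2 level over the 21 clusters went most closely with a receptor were found among 12945 genes, as a description over clusters that share libraries. They were *Col9a1* for *Grm3* (r = 0.84), *Pls1* for *Grm4* (r = 0.85), *Tnrc18* for *Grm5* (r = 0.79), *Ccdc30* for *Grm7* (r = 0.81) and *Ppme1* for *Grm8* (r = 0.80). For *Grm2*, *Gm28516*, *Uncx* and *Gm17750* each had r = 0.91. Among the receptors themselves the closest pairs were *Grm3* with *Grm5* (r = 0.52) and *Grm7* with *Grm8* (r = 0.47).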
